A study of Mus musculus with 31 samples.

Results

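Pecam1, Cdh5, Esam, Emcn, Plvap, Kdr, Flt1, Tek, Tie1 and Eng are genes of blood vessel endothelium, taken here by symbol as a list of endothelial markers. All 10 were found among the 54456 entries of the whole tumour table. Among the 12444 entries with a usable symbol of the sorted cell table, 8 of the 10 were found, and Kdr and Tek in sorted cells were not analysed here.

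The tumours came from AB1-mCherry, a murine mesothelioma line that carries the red fluorescent protein mCherry and whose brightest cells had been sorted and cultured before use. It grew under the skin (subcutaneous), in the peritoneal space or in the pleural space of untreated female BALB/c mice of 12 weeks, and samples were taken 10 days after inoculation. Whole tumours gave 5 subcutaneous, 5 peritoneal and 6 pleural libraries. A sort for mCherry-positive cells without the leukocyte protein CD45 gave 5 libraries per site, for 31 libraries in all, each named for a mouse. A single tumour line was used, no group was treated, and whether a whole tumour and a sorted library with the same mouse number share an animal is not stated. Values are in TPM, a share of all transcripts corrected for transcript length, so levels can be compared between genes of a library. A comparison between samples also depends on what else each library holds.

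Endothelial cells form the inner lining of blood vessels and hold to each other through junction proteins, among them VE-cadherin (Cdh5), PECAM-1 (Pecam1) and ESAM (Esam). Their growth is steered by receptors for vascular endothelial growth factor (VEGF), for angiopoietins and for proteins of the TGF-beta and BMP family. In a grafted tumour the vessels are made by the host, so in cells sorted for a tumour label these genes are used as a gauge of host stroma in the gate.

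RefSeq's promoter table (build GRCm38.p6) had an entry for 6 of the 10 genes: Eng, Emcn, Tek, Tie1, Kdr and Flt1. The 250 bases before the transcription start were searched on both strands for letters of ETS sites (CAGGAAG and CCGGAAG) and of a GATA site (AGATAA), since factors of both families act in endothelium. Only Emcn held a match, a CAGGAAG on the minus strand from 174 to 168 bases before the start, and the other 5 held none of the 3 words. Over all 32851 promoter windows of that length, 10.8% held CAGGAAG, 6.91% CCGGAAG and 9.99% AGATAA. The windows of Emcn, whose fold change in peritoneal sorted cells had the smallest adjusted p among these genes, and of Tie1, which was not called there, are shown 5′ to 3′ on the gene's strand with the matched letters in capitals. Emcn lies at chr3:137340828-137341077 on the plus strand and Tie1 at chr4:118489850-118490099 on the minus strand.
Emcn: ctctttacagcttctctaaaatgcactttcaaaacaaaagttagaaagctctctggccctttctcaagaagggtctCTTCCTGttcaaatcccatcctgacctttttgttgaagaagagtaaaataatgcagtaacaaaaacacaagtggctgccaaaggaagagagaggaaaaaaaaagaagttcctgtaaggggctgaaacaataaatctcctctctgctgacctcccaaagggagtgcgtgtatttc
Tie1: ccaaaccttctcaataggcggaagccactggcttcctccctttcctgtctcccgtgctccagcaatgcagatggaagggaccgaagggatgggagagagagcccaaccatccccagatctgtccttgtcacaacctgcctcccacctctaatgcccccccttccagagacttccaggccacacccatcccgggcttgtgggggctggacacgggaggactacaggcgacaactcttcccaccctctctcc
A match in these windows is a description of letters and says nothing of binding.

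The number of genes at 1 TPM or more was 14148 to 14880 in the whole tumours and 11573 to 12230 in the sorted samples. Msln, which encodes the mesothelial protein mesothelin, was between 150 and 316 TPM in every sorted library and between 163 and 286 TPM in every whole tumour. Pdpn was at 20.8 to 42.6 TPM and 39.4 to 65.2 TPM. Wt1, Upk3b and Krt19, also mesothelial genes, were not listed in sorted cells. In subcutaneous whole tumours they were at 0.446 to 1.21, at most 0.00856 and 0.198 to 0.633 TPM, with higher medians at both cavity sites. Msln is therefore given as a single gene and not as a gauge of cell type. Ptprc, the gene of CD45, was at 0.228 to 2.05 TPM in 13 of the sorted libraries, against 12.9 and 7.48 TPM in subcutaneous 1 and 2, which stand apart. Among whole tumours pleural 3 stands apart for these genes, with a summed level of 231 TPM against 103 to 178 TPM in the other 5 pleural tumours.

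In whole tumours Pecam1 was lower at both body cavity sites than under the skin and Plvap was lower in the pleura, while the other differences among the 10 genes did not pass the test. Summed over the 10 genes, the level was 188 ± 25.9 TPM in subcutaneous (SD, n = 5), 143 ± 16.8 TPM in peritoneal (n = 5) and 152 ± 45.5 TPM in pleural tumours (n = 6). Fewer endothelial cells and less of these RNAs per cell cannot be told apart in such bulk samples. Genes of other cell types had lower estimates too. The median log2 fold change of the 8 fibroblast genes was -0.62 in the pleura and -0.64 in the peritoneum against the skin, with 1 of 8 called lower at each site. The estimates of all 8 leukocyte genes were negative at both sites, with 3 called lower in the peritoneum (Cd53, Laptm5 and Tyrobp) and 0 in the pleura. Pf4, a platelet chemokine, was at 12.4 TPM in pleural against 51.5 TPM in subcutaneous tumours (-1.89, adjusted p = 0.00297). Of the 7 listed platelet genes, Gp1bb and Gp6 reached 1 TPM in 0 whole tumours and Gp9 and Ppbp in 1 each. Pf4 is therefore given as a single gene and not as a gauge of platelets. Of 3 skeletal muscle genes that passed the filter without the subcutaneous libraries, 2 were called lower in the pleura and 3 in the peritoneum. The part of these cell types in the endothelial values was not tested. Pleural against subcutaneous, 2 of 10 genes were called lower, Pecam1 and Plvap, and none higher, at an adjusted p below 0.05 in limma over all genes tested. In that comparison 12.8% of the 15054 genes tested were called, 3.4% lower and 9.4% higher. Peritoneal against subcutaneous, 1 of 10 was called lower, Pecam1, where 12.2% of all genes were called and 3.64% called lower. Among all called genes the share called higher was 73.4% for the pleura and 70.1% for the peritoneum, against 41.4% and 42.4% with median-of-ratios scaling and 48.4% and 48.2% with quantile normalization. The counts of called endothelial genes are too close to the background, over 10 genes, to be read as a result about the list.

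The junction and adhesion genes are Pecam1, Cdh5 and Esam. Pecam1, an adhesion protein at the contacts between endothelial cells, was at 24.6, 33.2, 31.1, 38.9 and 34.2 TPM in subcutaneous tumours 1 to 5. In peritoneal tumours it was at 22.2, 27.5, 21.5, 18.0 and 22.6 TPM, and in pleural tumours it ran from 15.3 over a median of 21.1 to 30.6 TPM. Subcutaneous tumour 1 was the lowest of its group and overlapped the range of both other sites, which 4 of 5 peritoneal and 4 of 6 pleural tumours lay below. The log2 fold change on log2(TPM + 1) was -0.54 (SE 0.15, adjusted p = 0.0325) for pleural and -0.51 (SE 0.16, adjusted p = 0.0472) for peritoneal against subcutaneous tumours. Both comparisons use the same subcutaneous tumours. Cdh5, the cadherin of endothelial junctions, averaged 24.7 ± 2.95 TPM under the skin, 19.5 ± 5.64 TPM in the peritoneum and 18.9 ± 5.98 TPM in the pleura, with log2 fold changes of -0.36 (adjusted p = 0.228) and -0.41 (adjusted p = 0.149) for peritoneal and pleural against subcutaneous. Esam, an immunoglobulin-like junction protein that platelets also carry, averaged 14.5 ± 1.98, 11.5 ± 2.68 and 11.5 ± 2.66 TPM in the same order of sites, with estimates of -0.32 in both comparisons (adjusted p = 0.166 and 0.146). Neither Cdh5 nor Esam passed the test at either site.

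Of the surface glycoproteins, Plvap, which forms the diaphragms of endothelial pores and caveolae, had the highest level of the 10. It was at 39.6, 53.8, 54.9, 60.3 and 55.4 TPM in subcutaneous tumours and at 39.1, 40.3, 37.0, 31.7 and 43.0 TPM in peritoneal ones. Pleural tumours ran from 24.4 over a median of 36.6 to 48.0 TPM. Again subcutaneous tumour 1 was the low one, and the other 4 lay above every peritoneal and pleural tumour. The pleural log2 fold change was -0.49 (SE 0.15, adjusted p = 0.0431), while the peritoneal one of -0.45 (adjusted p = 0.0693) missed the threshold. Emcn, endomucin, a mucin-like protein of capillary and venous endothelium, averaged 11.9 ± 2.26 TPM under the skin, 7.90 ± 1.96 TPM in the peritoneum and 10.7 ± 4.89 TPM in the pleura. Its pleural mean held pleural 3 at 20.4 TPM, with the next pleural tumour at 11.2 TPM, and neither comparison with the skin was called (adjusted p = 0.116 peritoneal and 0.564 pleural).

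None of the 5 receptors was called at any site in whole tumours. Tek, the angiopoietin receptor Tie2, was the least abundant of the 10 genes, at 1.85, 2.85, 2.07, 3.07 and 2.72 TPM in subcutaneous and at 1.26, 1.36, 1.40, 0.900 and 1.62 TPM in peritoneal tumours. These 2 groups do not overlap, which holds for 1 of the 10 genes and for 3.47% of all genes in the lower direction, but the log2 fold change of -0.60 had an adjusted p of 0.098. In pleural tumours Tek ran from 0.858 over a median of 1.25 to 4.51 TPM, with pleural 3 above every other tumour of the study. Against the skin, 0 of the 10 genes lay wholly below in pleural tumours, as 1.93% of all genes did. Tie1, the related orphan receptor, averaged 7.46 ± 0.97 TPM under the skin, 6.10 ± 1.26 TPM in the peritoneum and 5.66 ± 1.91 TPM in the pleura. Kdr (VEGF receptor 2), the main signalling receptor for VEGF-A, averaged 8.84 ± 1.16, 6.82 ± 0.70 and 7.28 ± 1.92 TPM in that order. For both genes the estimates were between -0.26 and -0.38, with adjusted p between 0.126 and 0.300.

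Flt1 (VEGF receptor 1, which also exists as a soluble trap for VEGF) and Eng (endoglin, a co-receptor for the TGF-beta and BMP family) stood nearest to no difference. Flt1 averaged 4.73 ± 0.72 TPM in subcutaneous, 4.28 ± 0.33 TPM in peritoneal and 5.25 ± 1.07 TPM in pleural tumours. Its log2 fold change against the skin was -0.11 (95% confidence interval -0.37 to 0.14) in the peritoneum and 0.12 (-0.13 to 0.36) in the pleura. Eng averaged 28.6 ± 4.63, 25.4 ± 2.70 and 30.9 ± 13.5 TPM, with intervals of -0.61 to 0.30 and -0.41 to 0.47. These intervals leave room for a fall of the size seen for Pecam1 in the case of peritoneal Eng, and not in the case of Flt1.

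**Figure D1:**
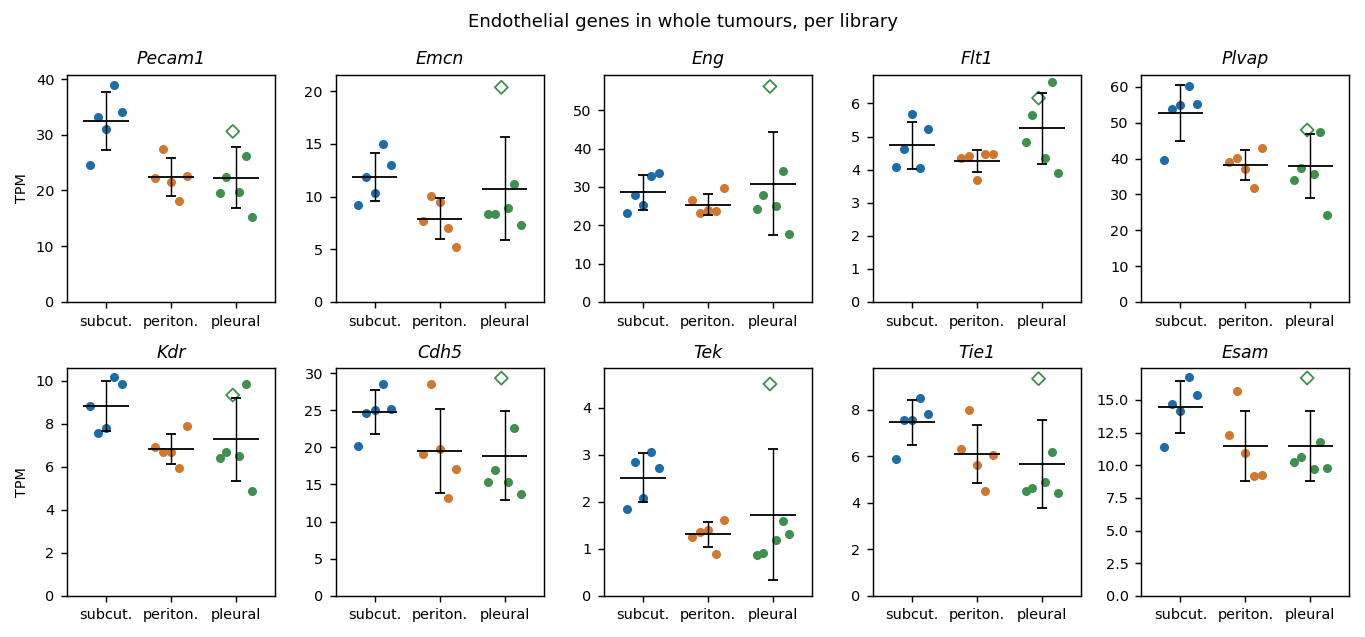
TPM (vertical axes, from 0) of the 10 endothelial genes in each whole tumour at the subcutaneous, peritoneal and pleural site; points are libraries, bars are the mean and SD, and the open diamond is pleural tumour 3. Pecam1 and Plvap sit higher under the skin for 4 of 5 tumours, and the diamond is the highest pleural value for 8 of the 10 genes, Flt1 and Kdr being the exceptions.

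Between the 2 cavity sites 0 of 10 genes were called in limma, 0 had an unadjusted p below 0.05 and 0 had groups that do not overlap, where 0.0531% of all genes were called and 1.14% did not overlap. The median log2 fold change over the 10 genes was 0.03 for pleural against peritoneal tumours, -0.35 for pleural and -0.34 for peritoneal against subcutaneous tumours. Over all genes tested the medians were 0.00, 0.07 and 0.07. The peritoneal estimate was negative for 10 of 10 genes and the pleural one for 8 of 10. The pleural calls were lost, leaving 0, without subcutaneous 2, 3, 4 or 5 or pleural 1, 2, 4 or 7 alone, 1 was left without peritoneal 1 or 3, and without pleural 3 there were 6 (Pecam1, Plvap, Cdh5, Tek, Tie1 and Esam). The share of all genes called lower moved too. It was 3.4% in the main fit, 4.48% without pleural 3 and 1.73% to 2.93% in the fits that left 0. The peritoneal count was 0 without any one of subcutaneous 2 to 5, peritoneal 1, 3, 4 or 7 or pleural 1, 2 or 4, was 2 without subcutaneous 1 or pleural 7, and was 3 without pleural 3. For the peritoneum the share of all genes called lower was 3.64% in the main fit and 4.56% without pleural 3. In the fits that left 0 it was 2.23% to 3.74%.

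The order of mean levels under the skin was Plvap, Pecam1, Eng, Cdh5, Esam, Emcn, Kdr, Tie1, Flt1 and Tek, where the mean ± SD ranges overlap for the neighbours Pecam1 and Eng, Eng and Cdh5, Esam and Emcn, Emcn and Kdr, and Kdr and Tie1. As a share of the summed TPM, Plvap took 28.0%, 26.7% and 25.3% in subcutaneous, peritoneal and pleural tumours and Pecam1 17.2%, 15.6% and 14.8%. Eng went the other way, from 15.2 ± 1.05% under the skin to 17.9 ± 2.55% and 19.7 ± 2.43%, and all 6 pleural shares, from 17.2% up, lay above the highest subcutaneous share of 16.7%. For Pecam1 all pleural shares, at most 15.9%, lay below the lowest subcutaneous share of 16.6%. Tek went from 1.33% to 0.909% in the peritoneum, where all shares lay below the subcutaneous ones, and Flt1 went from 2.54% to 3.02% and 3.54%. Esam held 7.68%, 7.96% and 7.71%. These shares were not tested, and because they add up to a fixed total, a gene that changed less than the sum gains share. Over the 16 whole tumours the pairwise Pearson correlations of log2(TPM + 1) among the 10 genes ran from 0.27 to 0.96 with a median of 0.74, and the median was 0.73 after the site means were taken out. Pecam1 and Plvap were the closest pair, and the 5 loosest pairs all held Flt1. All points come from shared libraries, so these are descriptions.

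Pleural tumour 3 had the highest mural and fibroblast sums of the pleural group. Its mural sum (12 pericyte and smooth muscle genes) was 279 TPM against 53.6 to 137 TPM in the other pleural tumours. Rgs5, 1 of the 12, was at 20.2 TPM against 6.63 to 17.1 TPM, and which genes made up the rest is not given here. The sum is therefore not read as vessel wall alone. The fibroblast sum (8 genes) was 2658 TPM against 1123 to 1962 TPM, and Postn, a matrix gene that was at 154 to 223 TPM in subcutaneous tumours, was at 75.1 TPM against 5.03 to 21.6 TPM. Acta1, the actin of skeletal muscle, was at 16.9 TPM in this tumour and at 248 TPM in pleural 5, against 0.108 to 0.179 TPM in the other 4 pleural tumours, 19.0 to 411 TPM in subcutaneous and 0.0906 to 0.323 TPM in peritoneal ones. The part of these in the endothelial values was not tested. With pleural 3 and 5 both left out, a choice made after their values were seen, 7 of the 10 genes were called lower in pleural than in subcutaneous tumours, all but Emcn, Eng and Flt1, with a median log2 fold change of -0.53. In that fit 16.2% of all genes were called and 4.93% called lower.

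**Figure D2:**
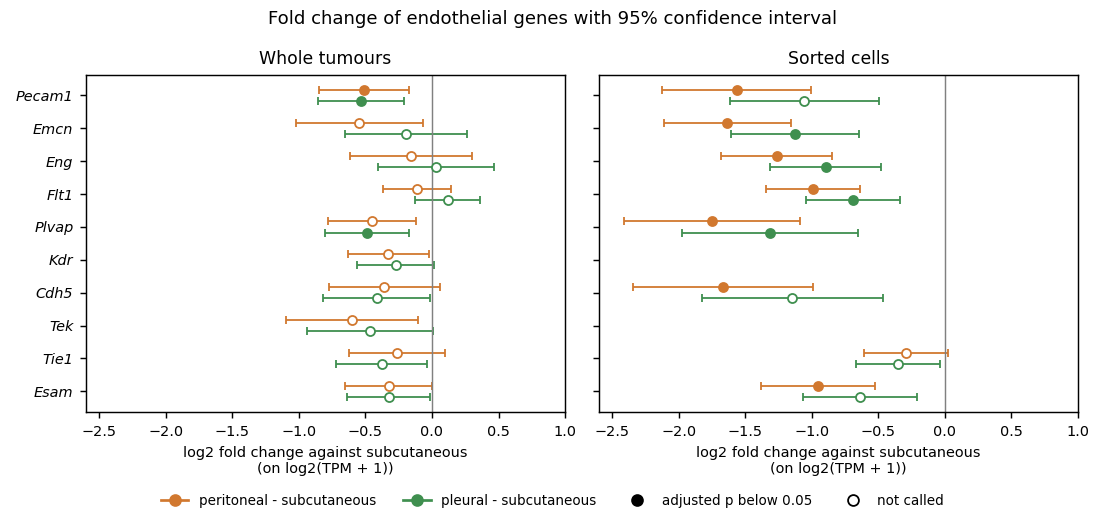
Log2 fold change on log2(TPM + 1) with its 95% confidence interval (horizontal axes) for peritoneal and pleural against subcutaneous samples, per gene, in whole tumours (left) and sorted cells (right); filled points passed an adjusted p of 0.05. The whole tumour estimates lie between -0.60 and 0.12, and the sorted cell estimates between -1.75 and -0.29.

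In cells sorted from the peritoneum Pecam1, Emcn, Eng, Plvap, Cdh5 and Esam were lower than in cells sorted from under the skin, with means 2.40 to 6.14 times apart. All 8 genes listed passed the filter of 1 TPM in 5 libraries, Flt1 only through the subcutaneous libraries where it is high, since 4 of 10 cavity libraries reached 1 TPM. Of the other 7 genes, 6 were called lower, all but Tie1, against 11.1% of the 12357 genes tested called and 6.33% called lower. For all 6 every peritoneal library lay below every subcutaneous one, which 5.04% of all genes showed. The median log2 fold change of the 7 genes was -1.57, beside -0.03 over all genes tested. In cells from the pleura 3 of these 7 were called lower than in subcutaneous cells, Emcn, Eng and Plvap, against 1.64% of all genes called and 1.25% called lower, and each of the 3 had groups that do not overlap, as 2.04% of all genes had in that direction. The median was -1.06 beside -0.02 over all genes. With a pseudocount of 0.1 none of the pleural calls held, and all the peritoneal ones did. Both comparisons use the same subcutaneous libraries. Quantile normalization moved the share of higher calls among all genes from 42.9% to 61.3% for the peritoneum and from 24.1% to 39.7% for the pleura.

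Pecam1 in sorted cells was at 8.08, 4.60, 5.71, 7.18 and 7.23 TPM in subcutaneous libraries 1 to 5. It was at 1.62, 0.999, 3.05, 1.41 and 0.972 TPM in the peritoneal libraries and at 2.37, 1.99, 1.18, 3.07 and 5.61 TPM in the pleural ones. The lowest subcutaneous library exceeded all peritoneal ones, while pleural 5 reached into the subcutaneous range. The peritoneal mean was 4.07 times below the subcutaneous one (log2 fold change -1.57, SE 0.26, adjusted p = 0.00183), and the pleural fold change of -1.06 had an adjusted p of 0.0599. Cdh5 followed the same course, at 6.57, 4.36, 4.83, 5.14 and 6.24 TPM in subcutaneous and at 1.86, 0.200, 2.44, 0.901 and 0.448 TPM in peritoneal libraries. In pleural libraries it was at 1.18, 1.65, 0.658, 2.68 and 4.66 TPM. Its peritoneal log2 fold change was -1.67 (SE 0.32, adjusted p = 0.00434), and the pleural one of -1.15 was not called (adjusted p = 0.103). Esam averaged 4.81 ± 1.03, 2.01 ± 0.55 and 2.83 ± 1.15 TPM at the subcutaneous, peritoneal and pleural site and was called for the peritoneum only (-0.95, adjusted p = 0.00812, against 0.172 for the pleura). Whether the pleural and peritoneal fold changes differ is what the comparison of those 2 sites tests, and it called none of these genes.

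Emcn had the largest ratio of means, 6.14 between subcutaneous and peritoneal cells. It was at 4.36, 3.16, 3.71, 4.70 and 4.23 TPM in subcutaneous libraries, at 0.797, 0.132, 1.24, 0.762 and 0.353 TPM in peritoneal libraries and at 1.37, 1.35, 0.292, 2.16 and 1.79 TPM in pleural ones. Both cavity groups lay wholly below the subcutaneous group, with log2 fold changes of -1.63 (SE 0.23, adjusted p = 0.000343) and -1.13 (SE 0.23, adjusted p = 0.014). Several of these levels are below 1 TPM, where a pseudocount of 1 makes the fold change smaller than the ratio of means. Plvap, the most abundant of the 8, was at 10.4, 7.84, 8.14, 13.1 and 12.6 TPM, at 3.60, 0.618, 5.08, 2.08 and 1.94 TPM and at 2.78, 3.17, 1.86, 5.60 and 5.25 TPM in the same order of sites. Its log2 fold changes were -1.75 (SE 0.31, adjusted p = 0.0027) for the peritoneum and -1.31 (SE 0.31, adjusted p = 0.0442) for the pleura, again with no overlap. The pleural call of Plvap was lost without pleural 3 (adjusted p = 0.142). That is among 6 fits leaving out 1 library in which only 1 of the 8 genes stayed called for the pleura.

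Among the receptors, Eng was at 7.26, 4.58, 3.65, 4.82 and 3.42 TPM in subcutaneous, 1.75, 0.702, 1.97, 1.26 and 1.20 TPM in peritoneal and 1.56, 2.14, 1.34, 2.47 and 2.78 TPM in pleural cells. Flt1 was at 3.21, 1.96, 2.04, 2.65 and 2.75 TPM, at 1.05, 0.525, 1.02, 0.784 and 0.492 TPM and at 0.766, 0.935, 0.853, 1.59 and 1.89 TPM. For both genes the lowest subcutaneous library was above every library of either cavity. The log2 fold changes of Eng were -1.27 (adjusted p = 0.00102) and -0.90 (adjusted p = 0.0287), and those of Flt1 were -0.99 (adjusted p = 0.00178) and -0.69 (adjusted p = 0.0475), for the peritoneum and the pleura. The values of Flt1 are a description, because the filter let it in through the subcutaneous group. The pleural call of Eng was lost in 6 of 15 fits that left out 1 library. Tie1 differed from these: it was at 2.26, 1.52, 1.77, 1.94 and 2.12 TPM in subcutaneous, 1.33, 1.46, 1.54, 1.28 and 1.29 TPM in peritoneal and 0.861, 1.31, 0.801, 1.47 and 2.23 TPM in pleural cells. The groups overlapped at both sites, and the log2 fold change of -0.29 (95% confidence interval -0.61 to 0.02, adjusted p = 0.208) for the peritoneum lay above the intervals of the other 7 genes, a comparison of estimates that was not itself tested.

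**Figure D3:**
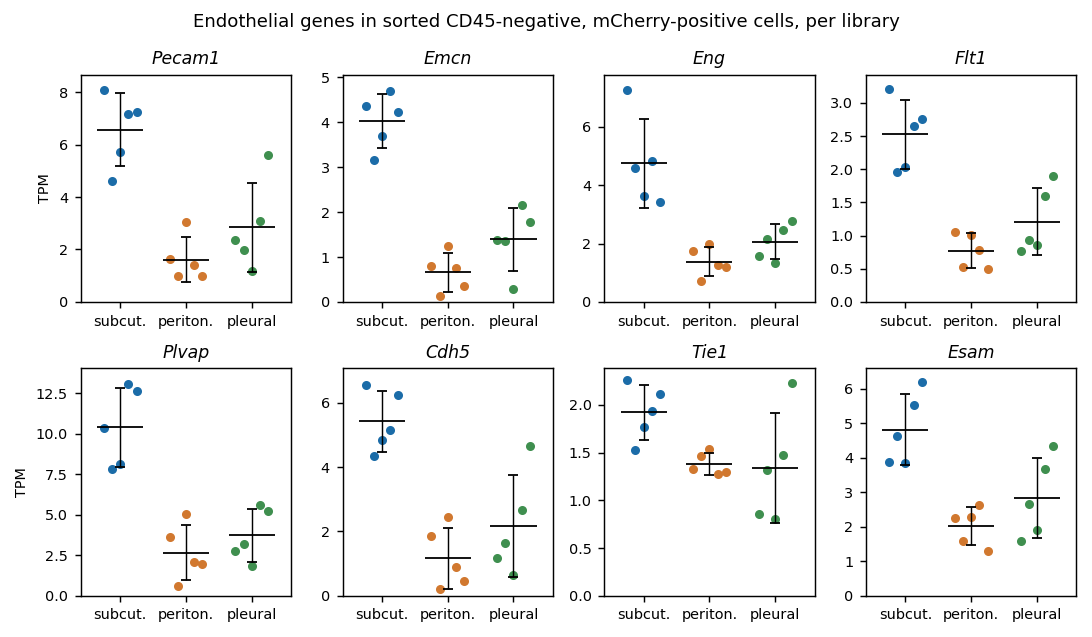
TPM (vertical axes, from 0) of the 8 endothelial genes in each sorted library at the subcutaneous, peritoneal and pleural site; points are libraries and bars are the mean and SD. For every gene but Tie1 the 5 subcutaneous points lie above the 5 peritoneal ones, and pleural library 5 is the highest or second highest pleural point for all 8 genes.

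With Flt1 counted, the number of genes called in the peritoneum was 7 in the fit of all libraries and in each of the 15 fits that left out 1 library. Flt1 can be 1 of the calls in any of these fits, and counts without it are not given here. The number in the pleura, 4 with Flt1, was 1 without subcutaneous 1, 2 or 4 or pleural 1, 2 or 3, was 2 without subcutaneous 3 or 5 or peritoneal 4, and was 6 without pleural 5, when Pecam1 and Cdh5 joined. Over the 15 fits the share of all genes called lower ran from 3.71% to 8.49% for the peritoneum. For the pleura it ran from 0.939% to 1.47%, with 1.26% without pleural 5. In the comparison of pleural with peritoneal cells 0 of 8 genes were called in limma, where 9.96% of all genes were called, 1 of 8 had an unadjusted p below 0.05 (Emcn) and 0 of 8 had groups that do not overlap, as 9.57% of all genes had. The median log2 fold change was 0.40, and the estimate was above 0 for 7 of 8 genes. Because 0 of 8 were called and all 8 had groups that overlap, a pleural level above the peritoneal one was not established. Without pleural 3, Emcn was called higher in the pleura than in the peritoneum, in a fit where 5.92% of all genes were called.

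Taken as a sum, the 8 genes reached 46.0, 32.6, 33.7, 45.0 and 44.8 TPM in subcutaneous sorted cells. They reached 14.3, 6.22, 18.6, 11.1 and 7.99 TPM in peritoneal cells and 12.5, 15.2, 8.91, 22.7 and 28.5 TPM in pleural cells. The 3 sites order as subcutaneous, pleural and peritoneal, with no subcutaneous library inside the range of the others and the last pair overlapping. Set beside the mean of the whole tumours from the same site, the sum in sorted cells was 22.8% under the skin, 8.60% in the peritoneum and 12.3% in the pleura. The tables were normalized separately and the kits for RNA differed, so these are levels side by side and were not tested. Gene by gene the percentage under the skin ran from 16.6% (Eng) to 53.3% (Flt1), in the peritoneum from 5.41% (Eng) to 22.7% (Tie1) and in the pleura from 6.67% (Eng) to 24.7% (Esam). Tie1 was the gene whose percentage varied least over the sites, at 25.8%, 22.7% and 23.6%.

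**Figure D4:**
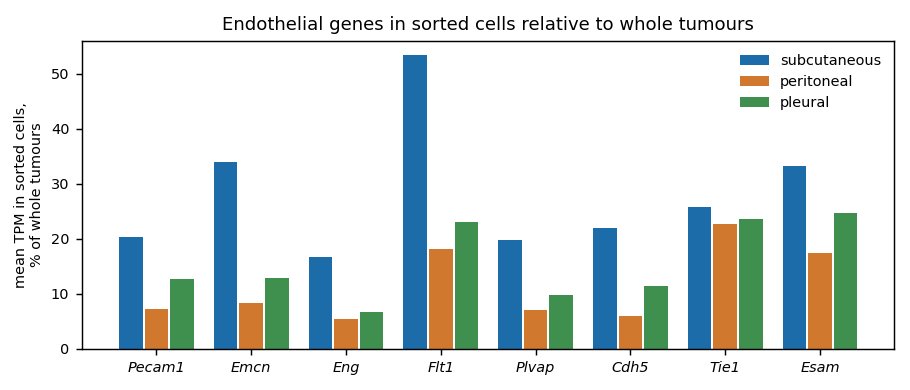
Mean TPM in sorted cells as a percentage of the mean TPM in whole tumours of the same site (vertical axis, from 0) for the 8 endothelial genes, with a bar per site. Subcutaneous bars are the tallest for all 8 genes, and the 3 bars are closest together for Tie1.

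Shares of the summed level in sorted cells are given as a description and were not tested. They add up to a fixed total in each library, so a gene that fell less than the sum gains share. Emcn made up 10.0 ± 0.68% of the summed level in subcutaneous, 5.13 ± 1.94% in peritoneal and 7.78 ± 3.04% in pleural cells, and Cdh5 13.5 ± 1.20%, 8.61 ± 4.41% and 11.2 ± 3.33%. Tie1 went from 4.78 ± 0.35% to 13.8 ± 6.26% and 7.77 ± 1.08%, and Esam from 12.0 ± 2.30% to 18.7 ± 5.63% and 16.6 ± 3.26%. For Tie1 both cavity groups, from 6.48% up, lay above the highest subcutaneous share of 5.26%. Plvap and Eng kept similar shares, 25.6%, 21.1% and 21.4% for Plvap and 11.8%, 12.1% and 12.5% for Eng. Over the 15 sorted libraries the 28 pairwise correlations ran from 0.70 to 0.97 with a median of 0.92, which was 0.75 after site means were removed. Pecam1 and Cdh5 were the closest pair, and the 5 loosest pairs all held Tie1.

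Genes listed for other cell types were also called lower in sorted cells, where 6.33% of all genes were called lower for the peritoneum and 1.25% for the pleura. Of 12 mural genes 3 were listed (Pdgfrb, Acta2 and Mcam), and their sum was 21.8 to 34.9 TPM in subcutaneous, 4.68 to 12.6 TPM in peritoneal and 7.77 to 15.8 TPM in pleural cells, with 3 of 3 and 2 of 3 called lower than under the skin. Without subcutaneous 1 and 2 the pleural count was 0 and the peritoneal count 2. Acta2 lost its peritoneal call without any one of subcutaneous 1 to 4, peritoneal 2, 4 or 5 or pleural 1, 3, 4 or 5 (adjusted p up to 0.13), and Pdgfrb its pleural call without any one of subcutaneous 1 to 3 or pleural 2 to 5 (adjusted p up to 0.0924). Mcam, an adhesion protein shared by pericytes and endothelium, fell by 1.43 on the log2 scale in the peritoneum (adjusted p = 0.00255). Of 7 fibroblast genes that passed the filter without the subcutaneous libraries, 4 were called lower in peritoneal and 3 in pleural cells, Mfap5 with log2 fold changes of -1.26 and -1.57 among them. The fibroblast sum over 8 genes was 1184 to 1936, 713 to 1186 and 906 to 1262 TPM in sorted cells, beside 1123 to 2658 TPM in whole tumours, so unlike the endothelial sum it was at a similar level in both tables. All 8 leukocyte genes were listed, and Cd53 alone was called lower at both cavity sites, while their sum was 30.3 to 506 TPM in subcutaneous, 25.6 to 57.1 TPM in peritoneal and 25.2 to 62.8 TPM in pleural cells. No listed gene of the 3 lists was at 0 in every library of a site. The part of these cell types in the endothelial result was not tested.

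Leukocyte and endothelial levels did not rank the subcutaneous libraries alike. The leukocyte sum was 506 and 393 TPM in subcutaneous 1 and 2 and 30.3 to 99.1 TPM in the other 3, whereas the endothelial sum was highest in subcutaneous 1 and lowest in subcutaneous 2. Without both of these libraries Pecam1, Emcn, Eng, Plvap, Cdh5 and Esam were called lower in peritoneal cells. So was Flt1, which the filter let in through the subcutaneous group. The median log2 fold change of the 8 genes was -1.34 there. In pleural cells 0 of 8 were called, with a median of -0.91. In that fit 7.97% of all genes were called for the peritoneum, 4.18% lower, and 0.858% for the pleura, 0.769% lower. Fabp4, a gene of adipocytes and of some capillary endothelium, was at 11.3 to 18.4 TPM in subcutaneous and at 1.74 to 8.35 TPM in peritoneal cells, and at 4.05 to 15.0 TPM in pleural cells, where it was not called. Sftpc, the gene of lung surfactant protein C, was at 31.9 TPM in pleural library 5 and at most 0.186 TPM in the other 14 libraries. The same library had the highest endothelial sum of the pleural group.

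**Figure D5:**
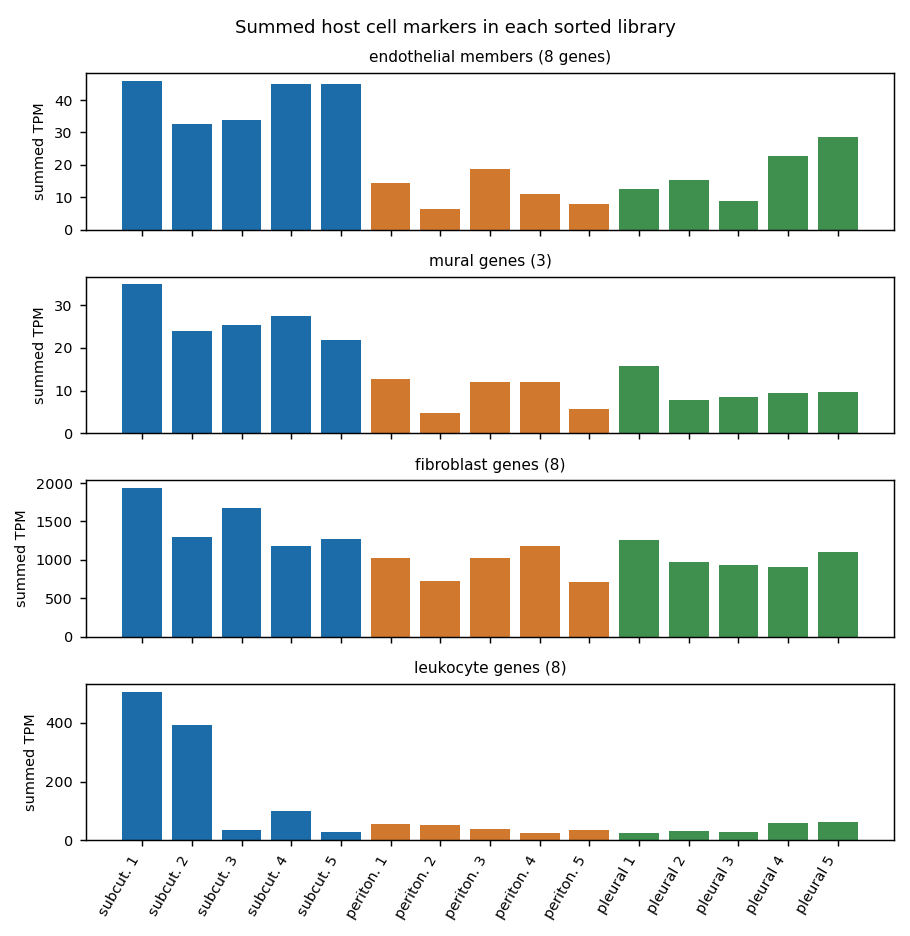
Summed TPM (vertical axes, from 0) of the 8 endothelial genes, 3 mural genes, 8 fibroblast genes and 8 leukocyte genes in each of the 15 sorted libraries. The endothelial and mural bars are tallest in the 5 subcutaneous libraries, while the leukocyte bars are tall in subcutaneous 1 and 2.

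Other genes of vascular endothelium gave these counts. Of 25 further pan-endothelial genes 8 were listed in sorted cells, and 7 passed the filter without the subcutaneous libraries. Of these, 2 were called lower in the peritoneum (Egfl7 and Calcrl) and 0 in the pleura, where 6.33% and 1.25% of all genes were called lower. Egfl7, which encodes a secreted endothelial matrix protein, averaged 7.60 ± 2.41 TPM in subcutaneous and 1.62 ± 1.26 TPM in peritoneal cells (log2 fold change -1.80, adjusted p = 0.0056). Cd34, a sialomucin of endothelium and of several other cells, was at 497 ± 7.69, 502 ± 64.0 and 503 ± 16.8 TPM in subcutaneous, peritoneal and pleural sorted cells. Its mean over sorted libraries was 130% of its mean over whole tumours, whereas the 8 markers ranged from 9.59% to 31.4% with a median of 17.1%. Sele, E-selectin, an adhesion molecule of activated endothelium, was at 23.5 TPM in sorted cells and 7.42 TPM in whole tumours on average. By this measure 4 of 8 further pan-endothelial genes and 5 of 6 venous or activation genes reached 50% or more, and 0 of the 8 markers and 0 of 3 mural genes did. These percentages are over all sites together, and under the skin alone Flt1 was at 53.3%. Only genes listed in sorted cells could be counted, and every entry listed there exceeded 1 TPM in at least 1 sorted library. That selection can raise the percentages, so the lists are not compared like for like.

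Sprouting, capillary and activation genes gave both directions. Of 8 tip cell genes 6 were listed in sorted cells, and 3 of them (Nid2, Pdgfb and Aplnr) passed the filter only through the subcutaneous libraries. Of the other 3, Cxcr4, a chemokine receptor that leukocytes also carry, was called lower in the peritoneum (-2.13, adjusted p = 0.0156), a call lost without subcutaneous 1 and 2 together and without peritoneal 2 and 5 together. Of 7 capillary genes 3 were listed, and Gpihbp1, which anchors lipoprotein lipase on capillaries, was at 6.01 ± 2.19 TPM in subcutaneous and 1.15 ± 0.63 TPM in peritoneal cells (-1.70, adjusted p = 0.00263). Selp, P-selectin, went the other way: it was at 1.94 ± 0.92 TPM in subcutaneous, 6.24 ± 1.96 TPM in peritoneal and 2.16 ± 1.48 TPM in pleural cells, and was called higher in the peritoneum than under the skin (1.32, adjusted p = 0.0137). That call was lost without subcutaneous 1 and 2 together, and without peritoneal 2 and 5 together. In whole tumours 24 of 25 further pan-endothelial genes passed the filter without the subcutaneous tumours, all but Sox7. Of these, 2 were called lower in pleural than in subcutaneous tumours, Cldn5 and Sox18, where 3.4% of all genes were. The Sox18 call was lost without subcutaneous 2. In peritoneal tumours 0 were called lower, where 3.64% of all genes were, and 2 of 25 had an unadjusted p below 0.05. These counts are too small to be read as a result about the list. Efnb2, ephrin-B2 of arterial endothelium, was higher in both cavities (0.45, adjusted p = 0.00113 for the peritoneum and 0.33, adjusted p = 0.00736 for the pleura). It alone was called among the 5 arterial genes tested, and its pleural call was lost with the replicate block. Its mean was 66.8 TPM in sorted cells and 78.0 TPM in whole tumours, so its level cannot be given to endothelium alone. No mural gene was called in whole tumours at either site (0 of 11), with 2 and 7 at an unadjusted p below 0.05 in pleural and peritoneal tumours.

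The ligands of the receptors did not move as 1 group. Vegfa, the main ligand of Kdr, was at 38.4 ± 6.89 TPM in subcutaneous, 46.7 ± 8.06 TPM in peritoneal and 59.6 ± 17.4 TPM in pleural whole tumours, and was called higher in the pleura (0.59, adjusted p = 0.0384). That call was lost without any one of subcutaneous 1, 2, 4 or 5 or pleural 2 or 4 (adjusted p up to 0.1) and under both other scalings. In sorted cells Vegfa was at 95.4 ± 23.8, 67.6 ± 18.8 and 98.3 ± 14.6 TPM and was not called. Tgfb1 and Tgfb3, ligands of receptor complexes that hold endoglin, went apart: Tgfb1 was lower in both cavities (-0.36, adjusted p = 0.0148 and -0.35, adjusted p = 0.0127) and Tgfb3 higher in both (0.44, adjusted p = 0.0253 and 0.46, adjusted p = 0.017). Without subcutaneous 2 neither call of Tgfb3 held, and the peritoneal one was also lost without peritoneal 2, with adjusted p up to 0.0693. Angpt2, a ligand of Tek, was at 5.57, 7.02 and 8.07 TPM on average in subcutaneous, peritoneal and pleural tumours and was not called. Of the 12 ligands 8 passed the filter without the subcutaneous tumours, with 2 higher and 1 lower in the pleura and 1 higher and 1 lower in the peritoneum. Over all genes 12.8% were called in pleural and 12.2% in peritoneal tumours.

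Of 10924 genes with a mean of at least 5 TPM, those whose level over the 16 whole tumours was most like the mean of the 10 endothelial genes were led by Sparc and Col1a1. Sparc, a secreted matrix glycoprotein, had a Pearson correlation of 0.96 with the mean z score, and Col1a1, a chain of type I collagen, had 0.95. Next came Loxl1 (0.93), Gpx3 (0.93), Pdgfrl (0.93), Clmp (0.92), Lrrc32 (0.92), Mmp2 (0.92), C1qtnf6 (0.92) and Sod3 (0.92). With site means removed the correlations of these 10 genes were between 0.90 and 0.96. Mmp2, a matrix-degrading enzyme, averaged 97.9 TPM in subcutaneous, 31.5 TPM in peritoneal and 51.2 TPM in pleural tumours, with log2 fold changes of -1.57 (adjusted p = 0.023) and -1.23 (adjusted p = 0.0491) against the skin. All of these values share the same libraries and their composition, so they describe likeness in these 16 tumours alone.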

How the data were processed

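The authors deposited expression as TPM, from kallisto on GRCm39 per the submitters' processing notes, with the version not given in the sources used here, in 1 table of whole tumours and 1 of sorted cells. TPM carry no depth, so the read depth is unknown. The tables were normalized separately and RNA kits differed, so no test crosses them. In the sorted table every entry exceeded 1 TPM in at least 1 library, and 17 entries with date-like names were dropped.

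A gene entered the test if 5 or more libraries of its table reached 1 TPM, and limma 3.58.1 (R 4.3.3) was fitted on log2(TPM + 1), all 3 sites in 1 fit, with Benjamini-Hochberg adjustment over 15054 genes of whole tumours and 12357 of sorted cells. Fold changes on this scale understate those of low genes. Each library is a mouse by its title, and replicate numbers are those of the titles, from which the library names of 3 peritoneal tumours differ. The members and lists were chosen with earlier results of these data known. Named are all members, up to 3 called genes per list with at least 5 TPM, ligands, co-receptors, Ptprc and the 10 genes most like the members. Cd34, Sele, Postn, Acta1, Pf4 and genes that complete a small count were named after their values were seen. The fitting steps were tested on simulated data.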

Additional observations from a re-analysis of the deposited data

Results flagged for a closer look

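In 5 of 54 sets of a gene and a group, 1 whole tumour lay far from the others of its group by Dixon's criterion, which chance alone meets in about 1 in 20 groups. In pleural tumour 3 Emcn was at 20.4 TPM against at most 11.2 TPM in the other 5, Tek at 4.51 against 1.60 TPM, Tie1 at 9.33 against 6.19 TPM and Esam at 16.7 against 11.8 TPM. These 4 share 1 library. Flt1 was at 3.69 TPM in peritoneal tumour 3, below the 4.36 TPM of the next lowest peritoneal tumour.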

How the results depend on the processing

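Of 54 member fold changes 14 were called, and none of the 359 alternative values of these had the opposite sign, while 87 lost the call. The 14, and the sorted cell counts of 4 and 7, include Flt1, which passed the filter only through the subcutaneous libraries. The share of all genes called moved with the setting too. Pleural against subcutaneous tumours had 12.8% in the main fit, 3.12% with no filter, 1.7% with the replicate block and 18.1% with array weights. Pleural against subcutaneous cells had 1.64% in the main fit and 0.858% without subcutaneous 1 and 2. In whole tumours the pleural count of 2 became 0 with no filter, with only the 2 sites compared, with the replicate block and with the libraries of that fit without the block, and 7 with array weights or without pleural 3 and 5. Leaving out 1 library gave 0 to 6. The peritoneal count of 1 became 0 with no filter, with the replicate block and with its libraries unblocked, 2 with median-of-ratios scaling, 3 with quantile normalization, 4 with only the 2 sites or with array weights, and 5 without pleural 3 and 5. Leaving out 1 library gave 0 to 3. In sorted cells the pleural count of 4 became 0 with a pseudocount of 0.1, with a filter at 5 TPM and without subcutaneous 1 and 2, 1 with the replicate block, 2 with quantile normalization and 7 without pleural 4 and 5. Leaving out 1 library gave 1 to 6. The peritoneal count of 7 became 2 with the filter at 5 TPM, which left 2 genes to test, and was 7 to 7 over single libraries left out. Pleural against peritoneal it was 0 to 0 for whole tumours, and for sorted cells 0 to 1. Mouse numbers did not pair the samples: deviations of same-numbered libraries correlated at -0.22 to 0.26 for whole tumours, and at -0.30 to 0.35 for sorted cells. The library names number 3 peritoneal tumours otherwise than the titles used here. With the replicate block by library name the counts were 0, 0 and 0 in whole tumours, and for pleural against peritoneal tumours Pecam1 was 0.093, Plvap 0.143, Cdh5 0.029, Tie1 0.001 and Esam 0.002.

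Estimates near 0 changed sign without a call. For pleural against subcutaneous tumours Eng was -0.057 with median-of-ratios scaling, -0.048 with quantile normalization, -0.11 with array weights, -0.26 without pleural 3 and 5, and -0.16 to 0.16 over single libraries left out, and Flt1 was -0.014 without pleural 3 and 5. For pleural against peritoneal tumours Pecam1 was 0.039 and Plvap 0.06 both with the replicate block and with its libraries unblocked. Over single libraries left out, Pecam1 ran from -0.119 to 0.072, Plvap from -0.114 to 0.076, Kdr from -0.031 to 0.147, Cdh5 from -0.188 to 0.085, Tek from -0.089 to 0.225, Esam from -0.11 to 0.11 and Eng from -0.002 to 0.32. Kdr was -0.019 with array weights, and without pleural 3 and 5 Kdr was -0.14, Eng -0.11 and Tek -0.16. Tie1 in sorted cells was 0.006 with array weights and -0.185 to 0.026 over single libraries left out. The cause was not tested.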
